A study of Homo sapiens with 54 samples.

Results

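GRN, the gene of progranulin, was followed through all 9 transfections of human H4 cells in both RNA fractions of the study. It was found by its symbol in the probe table, which pairs it with 1 probe set, identifier 8007620. It was thus 1 of 18417 genes with a symbol and 1 of the 11050 genes that were tested. H4 is an established line that the labels describe as glioneuronal. Every culture received 1 small RNA and was harvested 48 h later. Each harvest was measured as total lysate RNA and as RNA brought down with the anti-Argonaute antibody 2A8, called the IP here, on Human Gene 1.0 ST arrays. The transfected RNAs were mimics of 4 relatives that share the run AGCAGC near the 5′ end (miR-103 and miR-107, miR-16 with miR-195), mimics of miR-320 and miR-15b*, 2 altered forms of miR-107 that the design text calls non-physiological (miR-107-mut1, miR-107-mut2), and Ambion's negative control, to which all others are compared. There were 3 replicates in each of the 18 groups, which made 54 arrays. The design text calls them biological replicates. All groups are transfections of 1 cell line, and the level that each mimic reached in the cells was not analysed here.

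Progranulin is a secreted glycoprotein that also reaches the lysosome, where it is cut into granulin peptides. Loss of 1 copy of GRN is a known cause of frontotemporal dementia, and loss of both copies causes a lysosomal storage disease, so the amount of this protein matters in brain tissue. A microRNA loaded into Argonaute pairs with messages, mainly through the seed near its 5′ end, and Argonaute then holds the message, slows its translation and hastens its decay. A message that gains such a site for the transfected RNA can therefore be enriched in the IP, lowered in the lysate, or both. The comparisons address which stretches of a microRNA set its choice of targets.

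The mature sequences are shown so that the GRN values below can be read beside them. Whether sequence sets the order of those values was not tested. They were taken from RefSeq (GRCh38.p14), 5′ to 3′, with the seed (bases 2 to 8) in capitals.
miR-103: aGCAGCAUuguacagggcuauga
miR-107: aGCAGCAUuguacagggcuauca
miR-16: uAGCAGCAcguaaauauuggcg
miR-195: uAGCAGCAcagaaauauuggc
miR-15b*: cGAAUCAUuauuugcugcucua
The mimics of miR-103 and miR-107 share 1 seed, and so do those of miR-16 and miR-195. The run AGCAGC starts at base 1 in the first pair and at base 2 in the second, so the seeds of the pairs are shifted by 1 base. Counted from the 5′ end, miR-103 and miR-107 differ by G22C alone. Between miR-16 and miR-195 the differences are G10A and U11G over the 21 bases both have. The passenger strand miR-15b* holds no AGCAGC. In the genome, miR-107 lies at chr10:89592756-89592778 on the minus strand, in an intron of the pantothenate kinase gene PANK1, and miR-195 at chr17:7017667-7017687 on the minus strand. Both miR-103 and miR-16 come from a pair of loci each. The sequences of miR-320 and of the altered molecules, and seed sites in the GRN message, were not analysed here.

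GRN was the gene with the largest rise in the Argonaute IP after miR-103 and again after miR-107, and its lysate level fell in both. After miR-16 its IP level rose less, and after the altered form miR-107-mut1 it was at the level of the negative control. Values are log2 intensities, 1 per array. In the negative control IP, GRN read 7.46, 7.58 and 7.85. After miR-103 it read 11.41, 12.46 and 11.67, and after miR-107 it read 11.78, 11.72 and 11.24. All 6 of these arrays lay above all 21 other IP arrays. With miR-16 the values were 9.82, 10.02 and 10.48, and with miR-195 they were 9.08, 9.46 and 10.08. Every array of this seed pair lay above the controls and below the miR-103 and miR-107 arrays.

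The altered forms of miR-107 parted from each other. With miR-107-mut2 the IP values were 10.21, 10.39 and 11.11, above all controls and just below the lowest miR-107 array. With miR-107-mut1 they were 7.38, 7.07 and 8.33, which spans the control values. The unrelated miR-320 gave 7.30, 6.99 and 7.27, all below the lowest control. The strand miR-15b* gave 4.78, 6.15 and 7.70, the widest spread of any IP group, and its highest array lay within the control range. The miR-15b* array at 4.78 stood apart from the other IP arrays over all genes, with a median correlation of 0.821 with them and the narrowest spread of values in the IP (SD 1.35).

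**Figure D1:**
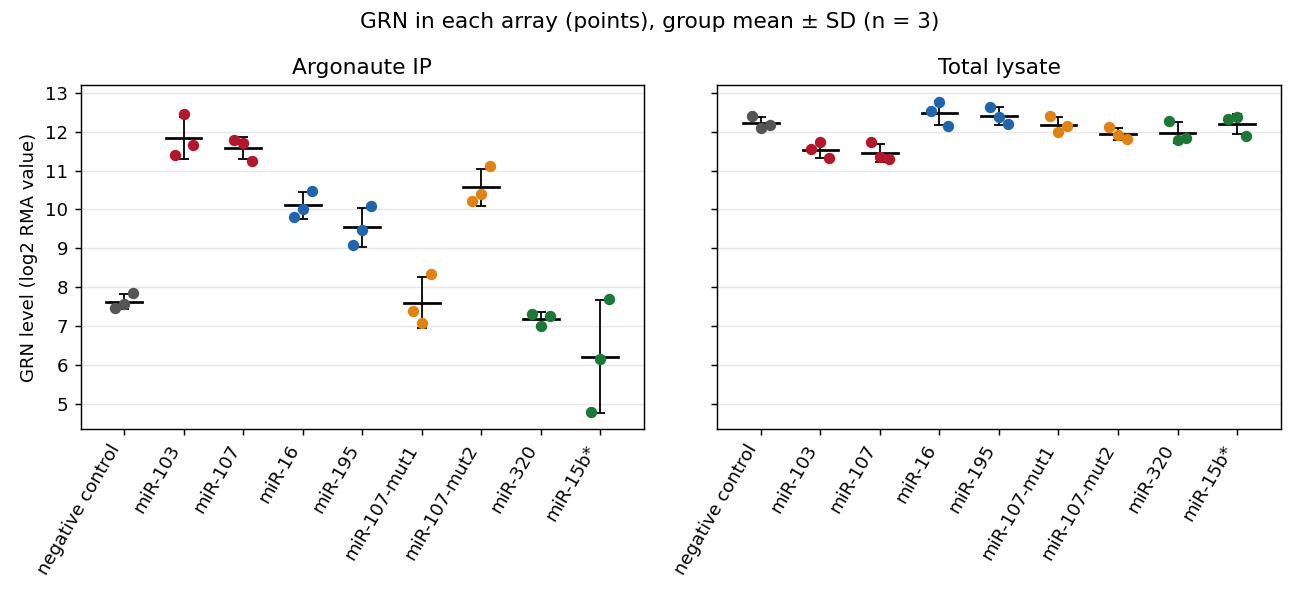
GRN log2 intensity on each of the 54 arrays, by transfection (x axis), in the Argonaute IP and in the total lysate, with points for arrays and bars for group means with their SD (n = 3). In the IP the miR-103 and miR-107 arrays sit between 11.24 and 12.46 and the controls between 7.46 and 7.85, while in the lysate all 27 arrays sit between 11.29 and 12.77.

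Group means in the IP ran from 11.8 ± 0.55 (SD, n = 3) with miR-103 to 6.21 ± 1.46 with miR-15b*, a span of 5.63 on the log2 scale, or 49.6-fold. The order was miR-103, miR-107 (11.6 ± 0.29), miR-107-mut2 (10.6 ± 0.48), miR-16 (10.1 ± 0.34), miR-195 (9.54 ± 0.50), the negative control (7.63 ± 0.20), miR-107-mut1 (7.60 ± 0.66), miR-320 (7.19 ± 0.17) and miR-15b*. Only 2 steps of this order parted neighbours whose arrays did not overlap. The first was a step of 1.01 from miR-107 to miR-107-mut2, and the second a step of 1.91 from miR-195 to the negative control. Neighbours within each of the 3 blocks so formed did not differ beyond their spread.

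Differences from the negative control were tested with limma, with Benjamini-Hochberg adjustment over all 11050 genes, and an adjusted p under 0.05 counted as a call. All comparisons with the control use the same 3 control arrays. With miR-103, GRN rose by 4.22 ± 0.48 (SE; 95% interval 3.23 to 5.20) on the log2 scale, 18.6-fold, with an adjusted p of 1.99e-05 by limma, where 2.03% of all genes were called. With miR-107 the rise was 3.95 ± 0.48 (2.97 to 4.94), 15.5-fold, with a limma adjusted p of 6.1e-05 against 3.83% of genes called. GRN ranked 1 of 11050 by size in both comparisons. The next gene was IER3IP1 each time, at 3.81 and 3.36. Rises past the threshold were few in these IPs, 26 genes or 0.235% with miR-103 and 24 genes or 0.217% with miR-107, beside 1.79% and 3.61% that fell. This split depends on the scaling, since after cyclic loess, a normalization that evens out the arrays, 97 and 141 genes rose.

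Samples with the same replicate number carry the same code in the labels, in both fractions and in all but 1 sample, and what the code stands for is not given. Within the 3 numbers GRN exceeded the control of that number in the IP by 3.95, 4.88 and 3.82 with miR-103 and by 4.32, 4.14 and 3.40 with miR-107. It did so by 2.36, 2.44 and 2.63 with miR-16 and by 2.75, 2.81 and 3.27 with miR-107-mut2. The rise was thus present in each number for these 4 molecules.

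The IP arrays of miR-103 and miR-107 had a narrower spread over all genes (SD 1.69 to 1.79 and 1.56 to 1.70) than those of the control (1.84 to 1.99), so a scaling of the arrays moves with these groups. After cyclic loess the GRN rises were as large, at 4.87 with miR-103 and 4.84 with miR-107. The IP values also shift together: the median over all genes tested was -0.185 with miR-107 and 0.00905 after cyclic loess.

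Among the mimics with the other seed, GRN rose in the IP with miR-16 by 2.48 ± 0.48 (1.49 to 3.46), 5.57-fold, with a limma adjusted p of 0.0090, where 1.26% of genes were called. GRN ranked 3 there (0.136% of genes rose), and the cytokine gene IL6 rose by 2.68 ± 0.63. The call rested on the third control array: without it the rise was 2.59 and the adjusted p 0.054. With miR-195 the difference was 1.91 ± 0.48 (0.92 to 2.90) with an adjusted p of 0.068, which did not pass, where 0.67% of genes were called. It passed under several other settings with values from 1.79 to 2.53, among them the fit with the replicate number as a block (adjusted p 0.0082), and within the 3 numbers it was 1.62, 1.88 and 2.23. A direct test of the first seed pair against the second put GRN 1.89 ± 0.34 (1.19 to 2.59) higher with miR-103 and miR-107, 3.71-fold, with a limma adjusted p of 0.0066 and 0.38% of genes called. GRN was the gene with rank 8 in that contrast, which IER3IP1 led at 4.50.

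Within each seed pair no difference in GRN was called. Between miR-103 and miR-107, which differ by 1 base near the 3′ end, the IP difference was 0.26 with an interval of -0.72 to 1.25. Between miR-16 and miR-195 it was 0.57 with an interval of -0.42 to 1.55. These contrasts called 0 of 11050 genes (0%) by limma, with 364 and 125 genes at an unadjusted p under 0.05. Both intervals allow a difference of more than 2-fold, so they do not show that the partners act alike.

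The GRN rise was not seen with miR-107-mut1. With this molecule GRN differed from the control by -0.03 (-1.02 to 0.96), where 0.742% of genes were called, and miR-107 exceeded it by 3.98 ± 0.48 in the IP, 15.8-fold, with a limma adjusted p of 1.4e-05, rank 1 of 11050 and 5.05% of genes called. With miR-107-mut2 GRN rose by 2.94 ± 0.48 (1.95 to 3.93) over the control, 7.69-fold, with a limma adjusted p of 0.0055. GRN again ranked 1, in a comparison in which 0.344% of genes were called and 0.0271% of all tested genes rose. The casein kinase gene CSNK1G2 came next in size at 1.70 ± 0.49, with an adjusted p of 0.19. Set directly against miR-107-mut2, miR-107 gave a GRN level higher by 1.01 (0.02 to 2.00), with an adjusted p of 0.55 and 0.0362% of genes called. After cyclic loess this difference was 1.64 with an adjusted p of 0.0029, so the call depends on the scaling.

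No rise of GRN was seen with the other mimics. The IP difference was -0.44 (-1.43 to 0.55) with miR-320, where 2.21% of genes were called, and -1.42 (-2.40 to -0.43; adjusted p 0.22) with miR-15b*, where 0.217% were. The latter rests on single arrays. Without miR-15b* replicate 1, the array that stands apart, it was -0.70, and without replicate 3 it was -2.16 with a limma adjusted p of 0.0044. With the replicate number as a block the adjusted p of the -1.42 was 0.044, and within the numbers the difference was -2.68, -1.42 and -0.15.

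**Figure D2:**
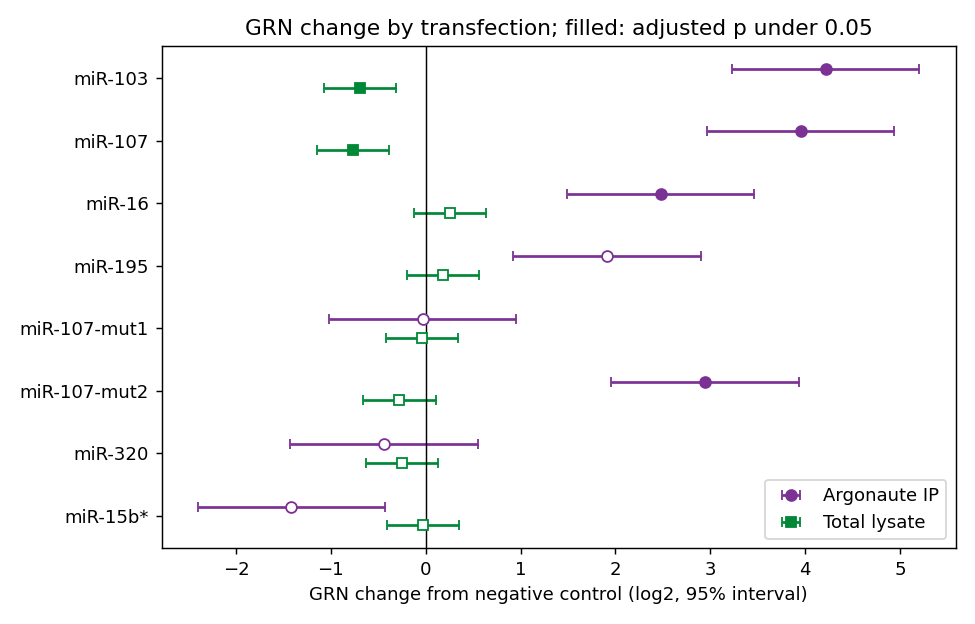
Log2 change of GRN against the negative control for each of the other 8 transfections, in the IP (circles) and in the lysate (squares), with 95% intervals from limma and filled marks for calls. The IP rises with miR-103 (4.22), miR-107 (3.95), miR-107-mut2 (2.94) and miR-16 (2.48) stand opposite lysate changes of -0.69, -0.77, -0.28 and 0.26.

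In the total lysate GRN was a strong signal that moved far less. The negative control read 12.40, 12.11 and 12.17. After miR-103 the values were 11.55, 11.74 and 11.32, and after miR-107 they were 11.73, 11.35 and 11.29. These 6 arrays were the lowest of all 27 lysates. In these bulk lysates, fewer cells with the message and less message in each cell cannot be told apart. The miR-16 lysates read 12.54, 12.77 and 12.15 and the miR-195 lysates 12.64, 12.39 and 12.19, so this pair overlapped the controls and lay at the top of the order.

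The remaining lysates lay close to the control. With miR-107-mut1 the values were 12.41, 12.002 and 12.14, and with miR-15b* 12.33, 12.37 and 11.89. With miR-107-mut2 they were 12.12, 11.91 and 11.82, and with miR-320 12.28, 11.80 and 11.84. The 9 lysate group means spanned 1.03, or 2.04-fold, from 12.5 ± 0.32 with miR-16 to 11.5 ± 0.24 with miR-107. The only neighbours in the lysate order whose arrays did not overlap were miR-107-mut2 (11.9 ± 0.15) and miR-103 (11.5 ± 0.21), a step of 0.41.

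By limma with Benjamini-Hochberg adjustment, GRN fell by 0.69 ± 0.18 (SE; interval -1.07 to -0.31) in the miR-103 lysate, 1.61-fold, with an adjusted p of 0.011. Here 17.2% of all genes were called, with 8.88% of all genes lower, and GRN had rank 603 counted from the largest fall. The call was lost without miR-103 replicate 3 (-0.58, adjusted p 0.058) and without control replicate 1 (-0.60, adjusted p 0.054). In the miR-107 lysate GRN fell by 0.77 ± 0.18 (-1.15 to -0.39), 1.71-fold, with an adjusted p of 0.0045 by limma. In that comparison 14.9% of genes were called, 8.35% lower, and GRN had rank 388 from the largest fall. Within the replicate numbers the lysate differences were -0.85, -0.37 and -0.85 with miR-103 and -0.68, -0.76 and -0.88 with miR-107. Many genes fell as far in these lysates, unlike the IP rises of GRN, which ranked first.

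With miR-16 the lysate difference was 0.26 (-0.12 to 0.64; adjusted p 0.37) and with miR-195 0.18 (adjusted p 0.65). Neither passed, although 17% and 14% of genes were called in those lysates. Set against this pair, miR-103 with miR-107 put GRN lower by 0.95 ± 0.13, 1.93-fold, with a limma adjusted p of 3.2e-05, rank 42 from the bottom and 10% of genes called. GRN was also lower with miR-107 than with miR-107-mut1, by 0.73 or 1.66-fold, with a limma adjusted p of 0.0082 against 13.5% of genes called. Without miR-107-mut1 replicate 1 that difference was -0.62 with an adjusted p of 0.052. The lysate differences of miR-107-mut1 (-0.04), miR-107-mut2 (-0.28), miR-320 (-0.25) and miR-15b* (-0.03) from the control did not pass, in comparisons that called 8.77%, 13.8%, 2.96% and 7.54% of genes. Nor did that of miR-107 from miR-107-mut2, at -0.49 (-0.87 to -0.11) with an adjusted p of 1.0, a comparison with 0.0814% of genes called. Within the seed pairs the lysate differences were 0.08 (-0.30 to 0.46) between miR-103 and miR-107 and 0.08 (-0.30 to 0.46) between miR-16 and miR-195, where limma called 0% of genes, with 382 and 170 genes at an unadjusted p under 0.05.

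The IP change minus the lysate change was tested in a fit of all 54 arrays. For GRN it was 4.91 ± 0.53 (3.84 to 5.97) with miR-103, with a limma adjusted p of 2.1e-08, and 4.72 ± 0.53 (3.66 to 5.79) with miR-107, with a limma adjusted p of 6.5e-08. GRN ranked 1 of 11050 in both, where 2.74% and 5.08% of genes were called. With miR-107-mut2 it was 3.22 with a limma adjusted p of 0.00028, again rank 1, at 0.724% called. With miR-16 it was 2.22, rank 5, with a limma adjusted p of 0.019 at 1.58% called. The miR-16 term did not hold when any of the 3 control cultures or miR-16 replicate 3 was left out (1.86 to 2.36, adjusted p 0.058 to 0.10). The term was 1.73 with miR-195 (adjusted p 0.10; 1.12% called) and -1.39 with miR-15b* (adjusted p 0.25; 0.498% called). It was -0.19 with miR-320 and 0.01 with miR-107-mut1, at 2.28% and 1.66% called. This joint fit took the IP and lysate arrays of a culture as independent and used 1 spread for both fractions. The terms called above stayed called under 10 alternatives that left no single replicate out. Among these was a fit of IP minus lysate values, paired by replicate number.

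In the control cells GRN read 7.63 in the IP and 12.2 in the lysate, but the fractions were on different scales, with array means of 3.61 to 3.65 and 7.11 to 7.17. As deposited the difference was -4.60 ± 0.37, where 99.9% of genes were called. It was -0.78 (limma adjusted p 0.0015) after cyclic loess and -0.37 (0.17) after joint quantile normalization, so the control message's place between the fractions depends on the scaling.

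**Figure D3:**
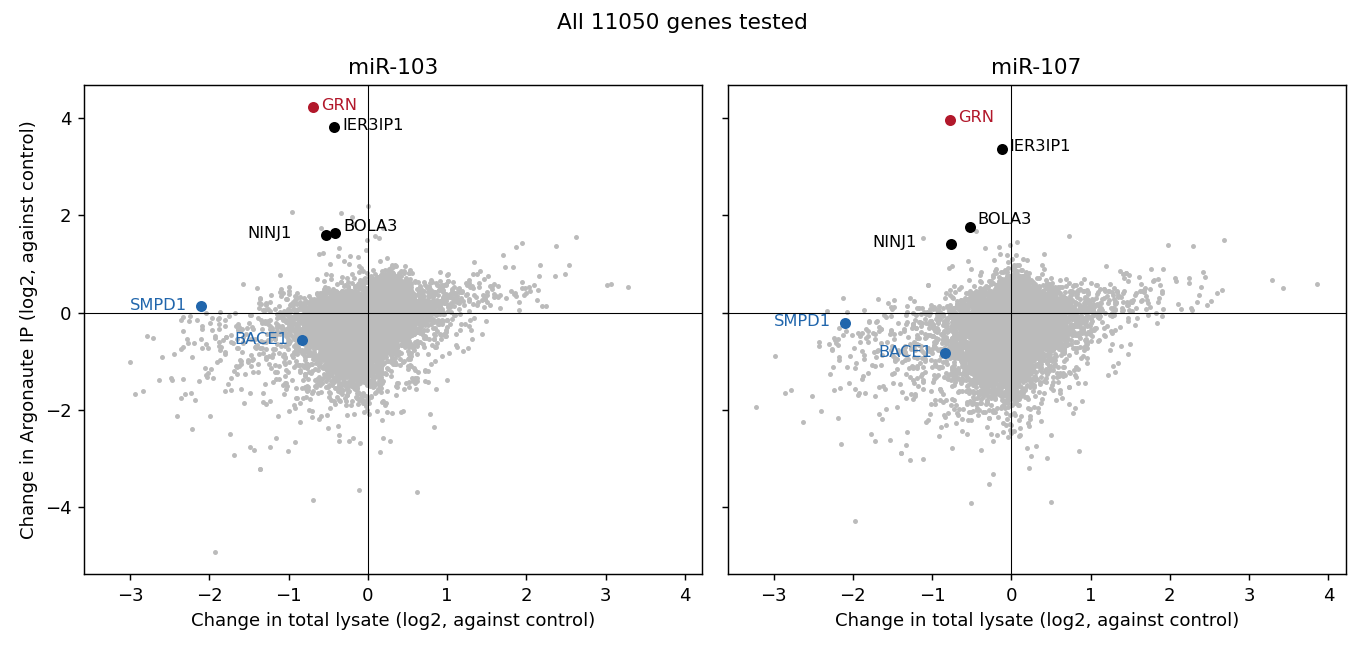
Log2 change against the negative control in the lysate (x axis) and in the IP (y axis) for the tested genes (points), with miR-103 and with miR-107. GRN is the highest point, left of 0 in the lysate, at -0.69 and 4.22 with miR-103 and at -0.77 and 3.95 with miR-107, with IER3IP1 next.

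Few messages rose in the IP and fell in the lysate. With miR-103 there were 6, which is 23.1% of the 26 IP rises and 0.612% of the 981 lysate falls, where 8.88% of all genes fell. With miR-107 there were 3, which is 12.5% of 24 and 0.325% of 923. The 12.5% is near the 8.35% of all genes that fell there, so this count is no result about IP rises as a group. The 3 genes GRN, BOLA3 and NINJ1 did so with both mimics. Without the arrays that stand apart there were 9 among 54 IP rises and 9 among 70, where 13.5% and 15% of all genes fell in the lysate. After cyclic loess there were 15 among 97 and 21 among 141, where 8.93% and 8.99% fell. The larger counts thus came with more IP rises. GRN and NINJ1 were in both sets each time. BOLA3, a mitochondrial iron-sulfur cluster factor, was 1.63 and 1.76 higher in the IP and 0.41 and 0.53 lower in the lysate with miR-103 and miR-107. NINJ1, a membrane protein that ruptures dying cells, was 1.59 and 1.40 higher in the IP and 0.53 and 0.76 lower in the lysate.

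Genes that follow GRN across the 9 group means were ranked by Pearson r among tested genes whose means spanned at least 0.5 of the GRN span, as a description. The points share the same arrays. In the IP 157 genes were eligible, and the highest were IER3IP1 (r 0.66), GUCD1 (0.65), LDOC1 (0.63), MMD (0.61) and PCOLCE (0.30). None matched the GRN pattern closely. IER3IP1 read 9.72 and 9.28 with miR-103 and miR-107 but 5.12 with miR-16, below its control level of 5.92. GUCD1 and LDOC1 did the same, at 4.94 and 6.63 with miR-16 against controls of 5.42 and 7.20. MMD and PCOLCE had the other order, at 8.76 and 11.8 with miR-16 against 7.41 and 9.30 with miR-103. GRN, with intermediate values for miR-16 and miR-195 and for miR-107-mut2, lay between these patterns.

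**Figure D4:**
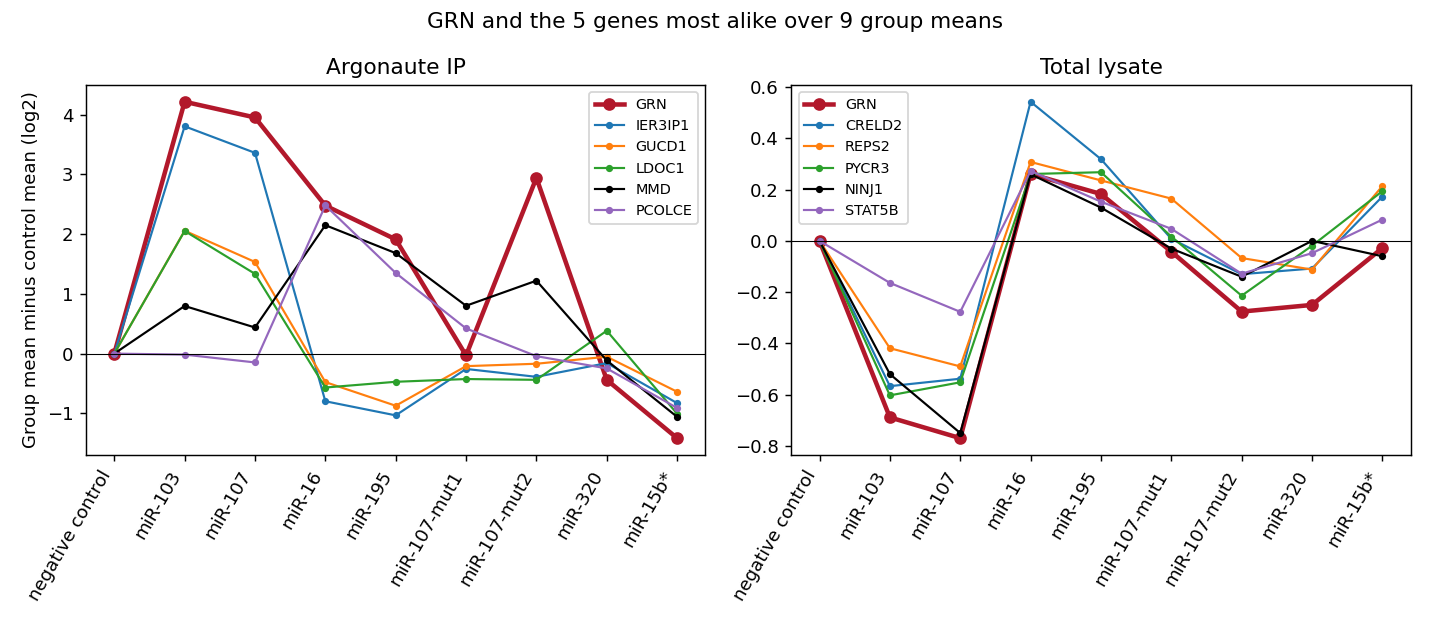
Group mean minus the control mean (log2) across the 9 transfections for GRN and the 5 most similar genes in the IP and in the lysate. In the IP the closest of 157 eligible genes reaches r 0.66, and in the lysate the 5 picked from 5570 lie above r 0.94.

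In the lysate 5570 genes were eligible, against 157 in the IP. The highest r is thus picked from a larger set here, so it cannot be compared between the fractions. The highest were CRELD2 (r 0.97), REPS2 (0.97), PYCR3 (0.97), NINJ1 (0.96) and STAT5B (0.95). CRELD2, an endoplasmic reticulum stress factor, read 7.98 and 8.01 with miR-103 and miR-107, 8.55 in the control and 9.09 with miR-16. NINJ1 read 10.7 and 10.4, 11.2 and 11.4 in the same order. STAT5B, a transcription factor of cytokine signalling, read 9.77, 9.66, 9.94 and 10.2. Over the 27 single arrays the correlations of these 5 genes with GRN were 0.83 to 0.92.

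The messages of proteins that bind, process or act with progranulin were next. Of 30 listed genes, 26 were tested. In the IP limma called none of the 26 in either direction with miR-103 or miR-107, where 2.03% and 3.83% of all genes were called. Of the 26, 3 and 11 had an unadjusted p under 0.05, beside 1809 and 2570 of all 11050 genes. After cyclic loess COMP, a cartilage matrix protein that binds progranulin, was called higher with miR-107 at 0.70. Without the arrays that stand apart, when 8.32% of all genes were called lower with miR-107, 5 of the 26 were, namely TNFRSF1A (-1.33), SLPI (-1.33), PLXNB2 (-1.27), CTSD (-1.03) and CD68 (-0.88). The list's median IP change was -0.26 with miR-103 and -0.48 with miR-107, beside -0.09 and -0.19 over all genes. In the lysate 4 rose and none fell with miR-103, and 3 rose and 1 fell with miR-107, where 8.37% and 6.51% of all genes rose and 8.88% and 8.35% fell. Without the arrays that stand apart 5 rose with miR-107, where 12.2% of all genes did.

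GPNMB, a lysosome-linked membrane glycoprotein that rises when progranulin is lost in mice, was higher in the lysate by 0.82 ± 0.26 with miR-103 and 0.99 ± 0.26 with miR-107. It was higher still with miR-16 (2.15) and miR-195 (2.32), whose GRN lysate levels were not called lower, and it fell with miR-107-mut1 (-0.90) and miR-15b* (-0.93). CTSL, a lysosomal protease able to cut progranulin, rose by 0.64 and 0.63, and the membrane protease MMP14 by 0.63 and 0.62. SLPI, the inhibitor that shields progranulin from elastase, fell with miR-107 by 0.96 ± 0.32 (limma adjusted p 0.046) and read -0.86 with miR-103 (0.066). With miR-107-mut2 the lysate values were 0.65 for CTSL, 0.46 for MMP14 and -0.97 for SLPI, all called. With miR-16 and miR-195 none of these 3 genes was called by limma, at 0.21 and 0.26 for CTSL, 0.35 and 0.26 for MMP14 and 0.08 and -0.07 for SLPI. The lower SLPI mean was not particular to miR-103, miR-107 and miR-107-mut2. SLPI read 11.61 in the control lysate, 10.93 with miR-107-mut1, 10.91 with miR-320 and 10.92 with miR-15b*, beside 10.75 with miR-103 and 10.65 with miR-107.

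The main partners on the array did not pass. PSAP, which carries progranulin to the lysosome, was at 12.3 in the control lysate and 12.4 and 12.3 with miR-103 and miR-107, a change of 0.05 and 0.01. In the IP it read -0.75 and -0.86. TMEM106B, whose variants modify the dementia risk of GRN carriers, changed by -0.16 and 0.24 in the lysate. LRP1, the receptor that takes up prosaposin with progranulin, changed by 0.40 and 0.38. The sortilin gene SORT1 was not analysed here.

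**Figure D5:**
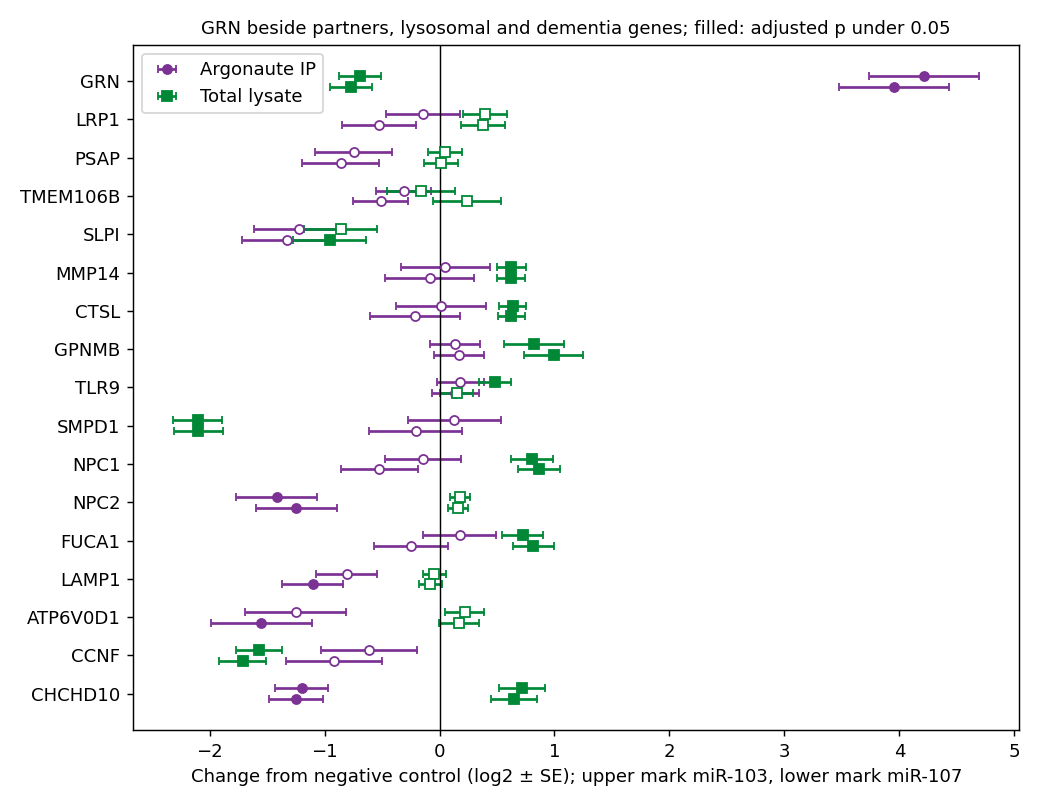
Log2 changes against the negative control for GRN and members of the progranulin, lysosome and dementia lists, in the IP (circles) and in the lysate (squares), with miR-103 as the upper and miR-107 as the lower mark of each gene, bars for the SE and filled marks for calls. In the IP GRN at 4.22 and 3.95 lies far above the listed genes, and in the lysate SMPD1 at -2.11 and -2.10 lies lowest of the genes drawn.

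Of 16 genes of frontotemporal dementia, 11 were tested beside GRN. In the lysate CHCHD10, a mitochondrial protein, rose by 0.72 and 0.65, and CCNF, a cyclin that directs protein destruction, fell by 1.57 ± 0.20 and 1.71 ± 0.20 with miR-103 and miR-107. No other member was called, so 1 of 11 rose and 1 fell, beside the 8.37% and 6.51% of all genes that rose and the 8.88% and 8.35% that fell. CCNF also fell with miR-16 (-1.58) and miR-195 (-1.70). In the IP the CHCHD10 change was -1.2 and -1.25, with limma adjusted p of 0.0072 and 0.0037. After cyclic loess these values were -0.53 and -0.36 and were not called.

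The lysosome list held 49 genes, of which 41 were tested. In the lysate 6 rose and 1 fell with miR-103, and 5 rose and 1 fell with miR-107, beside 8.37% and 6.51% of all genes that rose and 8.88% and 8.35% that fell. Without the arrays that stand apart 9 and 8 rose, beside 10.6% and 12.2% of all genes, and 1 fell with each mimic, beside 13.5% and 15%. The gene that fell was SMPD1, the acid sphingomyelinase, from 11.1 ± 0.18 in the control to 9.01 ± 0.02 and 9.01 ± 0.42, a change of -2.11 and -2.10 with limma adjusted p of 3.0e-07 and 2.5e-07. In the IP SMPD1 changed by 0.13 and -0.21, so it had the lysate fall without the IP rise of GRN. NPC1, the lysosomal cholesterol exporter, rose by 0.81 and 0.87 in the lysate, and the glycosidase FUCA1 by 0.72 and 0.82. These genes moved the same way with miR-16 and miR-195, at -1.13 and -1.30 for SMPD1, 1.26 and 1.26 for NPC1 and 0.84 and 0.87 for FUCA1, all called. The control also had the lowest of the 9 lysate group means for NPC1 and FUCA1. NPC1 read 9.97 in the control, 10.39 with miR-320 and 10.28 with miR-15b*, and FUCA1 read 9.27, 9.55 and 9.73. SMPD1 read 9.945 with miR-107-mut1, 10.8 with miR-320 and 11.24 with miR-15b*, against 11.11 in the control. In the IP the lysosomal list had no rise, with 1 fall with miR-103 and 3 with miR-107, where 1.79% and 3.61% of all genes fell. Without the arrays that stand apart 6 fell with miR-107, beside 8.32% of all genes. After cyclic loess IDS, a lysosomal sulfatase, was called higher with miR-107 at 0.90. Of these NPC2 (-1.42 and -1.25) lost its call after cyclic loess at -0.93 and -0.51, and LAMP1 with miR-107 (-1.10) kept it at -0.75. ATP6V0D1 with miR-107 (-1.55) lost it.

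Of 27 other published targets of miR-103 and miR-107, 20 were tested, and most did not pass. In the lysate 7 fell and none rose with miR-103, and 5 fell and 1 rose with miR-107, where 8.88% and 8.35% of all genes fell and 8.37% and 6.51% rose. Without the arrays that stand apart 10 fell and 1 rose with miR-103, and 9 fell and 3 rose with miR-107. Over all genes 13.5% and 15% fell there and 10.6% and 12.2% rose. The list's median was -0.38 and -0.33, beside 0.03 and 0.01 over all genes. CDK6, a G1 kinase, fell by 1.57 and 1.28. The calcium channel subunit gene CACNA2D1 fell by 1.99 ± 0.44 and 1.61 ± 0.44. BACE1, the beta-secretase, fell by 0.83 with each mimic, more than GRN in log2 units, and LATS2 rose by 0.31 with miR-107. Such falls were not limited to miR-103 and miR-107. With miR-16, miR-195 and miR-107-mut2, 5, 4 and 4 of the 20 fell and none rose, where 823, 798 and 838 of 11050 genes fell. BACE1 read 11.12 in the control lysate and 10.41, 10.34 and 10.54 with these molecules. DAPK1 went the other way with miR-16 and miR-195, at 7.55 and 7.56 against 7.31. With miR-320, 2 of the 20 fell and none rose in the lysate, where 2.96% of all genes were called in either direction. With miR-15b* 1 fell and 1 rose, where 7.54% were called. None of the 20 was called with miR-107-mut1, where 8.77% of all genes were. In the IP the 20 genes ranged from -0.85 to 0.34 with miR-103 and from -1.08 to 0.28 with miR-107. None was called higher, where 0.235% and 0.217% of all genes were. CCNE1, a G1 cyclin, was called lower with miR-107, where 3.61% of all genes were. With miR-103 an additional fall, of DICER1, was called after cyclic loess (-0.79). These targets were gathered from the literature, in part in cells of other kinds.

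The labelled cell type was checked against markers. Of 11 glial and neuronal markers on the array, 9 passed the filter and 6 lay above the lysate median. Those above it were VIM at 12.6, SOX2 at 10.3, ENO2 at 9.77, L1CAM at 8.91, MAP2 at 8.09 and NCAM1 at 7.73. Below it lay NES at 6.85, GFAP at 6.69, NEFL at 6.67, NEFM at 5.6 and S100B at 4.47. Over all genes 11050 of 18417 passed the filter. A median divides all values evenly, so 6 of 11 is near the share of any genes. Of 10 microglial and myeloid markers, which are listed because microglia are rich in progranulin, 3 passed the filter (CD68 at 10.46, TYROBP at 8.36, SPI1 at 7.22) and 2 lay above the lysate median. The other 7, left out by the filter on the mean over both fractions, had lysate means of 3.60 for PTPRC, 4.81 for AIF1, 4.86 for P2RY12, 5.05 for CX3CR1, 6.01 for CD14, 6.11 for ITGAM and 6.27 for CSF1R. The mean of the myeloid list ran from 6.22 to 6.27 in the control lysates, 6.34 to 6.52 with miR-103 and 6.19 to 6.24 with miR-107. Of the other arrays, the lysates of miR-103, miR-15b* and miR-16, replicate 2 each, also stood apart by their correlation. Without them and the miR-15b* IP array, every call of GRN against the control as given above held.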

How the data were processed

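RNA from the Argonaute IP and the lysate was hybridised to Human Gene 1.0 ST arrays. The deposited values are log2 intensities that the authors made with RMA, run in Affymetrix Expression Console 1.1 according to the submitters' processing notes. The log base is taken from what RMA returns, is not stated, and limits every fold given. From the array means, each fraction seems to have been scaled apart from the other. Of 33297 probe sets, 19460 had 1 symbol, 1754 several and 12083 none, and 19429 matched the gene table by gene ID. For 769 genes with several probe sets the highest mean was kept. The lowest 40% of genes by mean (below 5.26) were left out. Background signals were not used here, and precision rests on 3 arrays a group.

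Each fraction (27 arrays, 9 groups) was fitted in limma 3.58.1 under R 4.3.3, and a joint fit of 54 arrays gave 8 interaction terms. In all, 35 contrasts of GRN were made. The fits were tested on simulated data, with changes set for miR-107 against the control. Of log2 changes of size 1, 53.8% were recovered in the IP and 77.5% in the lysate. Of those of size 2, 91.2% and 98.8% were recovered. A change of size 1 can thus go uncalled. Named genes were GRN, list members called with miR-103 or miR-107 (at most 8 a list, by size), 5 partners of progranulin, and the 5 genes most like GRN in each fraction. BOLA3, IL6, CSNK1G2, COMP, TNFRSF1A, PLXNB2, CTSD, CD68, TGFB1, LATS2 and IDS were named after their values were seen. The members and lists were chosen with earlier results of these data known. Alternatives were other filters, array weights, the replicate block, cyclic loess, joint quantile normalization, the compared arrays alone, the mean of 3 controls, and leaving out arrays. No columns without a sample were used. Sequences are from RefSeq.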

Additional observations from a re-analysis of the deposited data

Results flagged for a closer look

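The change of GRN differed between the fractions, by the test of the difference itself, for 4 of the 8 transfections. The IP change exceeded the lysate change by 4.91 on the log2 scale with miR-103, by 4.72 with miR-107, by 3.22 with miR-107-mut2 and by 2.22 with miR-16. With miR-103 and miR-107 the fractions moved in opposite directions and both moves were called. With miR-107-mut2 and miR-16 the IP rise was called and the lysate difference (-0.28 and 0.26) was not. The interaction cancels an additive offset between the fractions, and after cyclic loess it stayed called in all 4. It also stayed called in all 4 after joint quantile normalization of both fractions. A part of the array scale in these differences was not tested beyond these alternatives.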

How the results depend on the processing

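The GRN calls against the control in the IP (miR-103, miR-107, miR-16, miR-107-mut2) and in the lysate (miR-103, miR-107) kept direction and call under all alternatives that left no single replicate out. The miR-195 difference in the IP, which did not pass as given, was called with array weights (1.795), the replicate block (1.912), cyclic loess (2.49), the compared arrays alone (1.912), the mean of 3 controls (2.531) and, chosen after seeing the data, without the arrays that stand apart (1.912). Its IP minus lysate term was called with array weights (1.702), cyclic loess (2.357), joint quantile normalization (1.744), the compared arrays alone (1.73) and without the arrays that stand apart (1.73). Array weights, whose estimation stopped before its tolerance was met, also called the lysate differences of miR-16 (0.3662), miR-15b* (-0.2519), miR-107 against miR-107-mut2 (-0.5362) and miR-16 against miR-195 (0.3186). Cyclic loess called miR-107 against miR-107-mut2 in the IP (1.636), and after joint quantile normalization the control IP against lysate was -0.3737 and not called. Samples of the same replicate number deviated together on average, with a mean correlation of 0.27 in the IP and 0.31 in the lysate. Other numbers gave -0.13 and -0.14. Values were centred within each group of 3, which ties these to the same-number means with opposite sign, so they add no separate support. The correlation passed 0.1 in 84 of 108 and 79 of 108 same-number pairs but not in all, so the fits given first have no block. The replicate block called miR-195 as above and miR-15b* in the IP (-1.416), and moved the calls over all genes from 224 to 850 with miR-103 and from 423 to 1950 with miR-107 in the IP. Leaving out 1 replicate at a time gave 2.29 to 2.622 for miR-16 in the IP, -2.16 to -0.7007 for miR-15b* in the IP, -0.7916 to -0.5808 for miR-103 in the lysate and -0.8656 to -0.6168 for miR-107 against miR-107-mut1 in the lysate. The IP minus lysate term ran from 1.86 to 2.401 for miR-16 and from -2.283 to -0.6065 for miR-15b*. Where calls changed, the cause was not tested. Calls over all genes also moved by over 1.5 times: with array weights to 1263, 1217, 5589 and 5144 (miR-103 IP, miR-107 IP, then lysates, from 224, 423, 1906 and 1642), with the compared arrays alone to 847, 1330, 1229 and 3012, with the mean of 3 controls to 395 and 884 in the IP, with cyclic loess to 441 for miR-103 in the IP, and without the arrays that stand apart to 421, 989 (IP) and 3006 (miR-107 lysate). The number of arrays limits what small differences can show.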

Other observations

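Progranulin is also a growth factor, and other secreted growth factors were listed with it. Of 19 tested, 3 rose and 2 fell in the lysate with miR-103, and likewise with miR-107. Over all genes 8.37% and 6.51% rose there and 8.88% and 8.35% fell. In the IP limma called none with either mimic, where 2.03% and 3.83% of all genes were called. Of the 19, 4 and 5 had an unadjusted p under 0.05, beside 1809 and 2570 of all 11050 genes. After cyclic loess HDGF was called lower with miR-103 (-0.92) and TGFB1 higher with miR-107 (0.89) in the IP. LIF, a cytokine of the interleukin 6 family, rose in the lysate by 1.2 ± 0.27 with miR-103 and 1.21 ± 0.27 with miR-107. HBEGF, a ligand of the EGF receptor, rose by 0.81 with each. VEGFC, a lymphatic growth factor, fell by 0.64 and 0.70, and HDGF, a nuclear and secreted mitogen, by 0.48 and 0.54. TGFB2 rose with miR-107 by 0.95 and read 0.70 with miR-103, which did not pass. The moves of LIF, HBEGF, VEGFC and HDGF were not particular to miR-103 and miR-107. Of the 9 lysate group means, the control had the lowest for LIF and HBEGF and the highest for VEGFC and HDGF. LIF read 7.56 in the control, 8.84 with miR-16, 8.67 with miR-15b* and 8.64 with miR-320. HDGF read 12.90 in the control, 12.48 with miR-16, 12.60 with miR-15b* and 12.59 with miR-320.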
